A study of Mus musculus with 12 samples.

Results

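Described here are 39 genes of mitochondrial and peroxisomal fatty acid oxidation, chosen by symbol from the 19261 genes measured in mouse kidney, together with the nuclear receptor PPAR-alpha and genes that it is known to control. All 39 symbols had a row in the expression table, and 38 of them (all but Acadl) passed the filter on low counts and were tested. The genes were picked by name and not by a cut on measured values. RNA was sequenced from kidney tissue in 12 libraries, 3 in each of 4 groups. Mice of the first group received busulfan, a DNA-crosslinking alkylating drug, once at 40 mg/kg and were then dosed with alginate oligosaccharides (AOS), short sugar chains from brown algae, for 5 weeks at 10 mg/kg. The busulfan group had only the single 40 mg/kg dose, the AOS group had only the 5 weeks of AOS at 10 mg/kg, and the control group had neither. The strain is given as "IRC mouse" for every library, and no genotype, age or time of day is given. The labels do not say that the samples of a group came from separate animals, so that p-values measure only the spread between these samples, which may be technical.

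In mitochondrial beta-oxidation a fatty acid is activated to its acyl-CoA, carried into the mitochondrion by the carnitine shuttle and shortened in repeated rounds of dehydrogenation, hydration, dehydrogenation and thiolysis. Peroxisomes shorten very long and branched chains by a parallel set of enzymes. PPAR-alpha is a nuclear receptor that binds fatty acids and, paired with RXR, switches on genes of both routes, above all in fasting. The proximal tubule, the most abundant cell population of the kidney cortex, draws much of its energy from fatty acids.

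Library totals were between 13875942 and 15329347 estimated reads. Levels are given as normalized CPM, counts scaled to library size with trimmed means of M values, and levels are compared between genes only as FPKM, which also divides by transcript length. Busulfan replicate 3 stood apart in adrenal gland markers: the 14 genes summed to 10726 normalized CPM there and to between 5.74 and 11.9 in the other 11 libraries. Busulfan plus AOS replicate 3 stood apart in hepatocyte markers: the 15 genes summed to 17507 normalized CPM there and to between 33.8 and 340.3 elsewhere. The 15 adipose markers summed to 1614 and 2055 normalized CPM in busulfan replicates 2 and 3, against 564.2 to 1008 in the other 10 libraries. The 20 proximal tubule markers all had reads in every library, whatever the tissue label "Cells" stands for, and summed to 58181 normalized CPM in busulfan replicate 3 and to between 74276 and 95072 elsewhere. Results that rest on these libraries are given with and without them. Fits without busulfan replicates 2 and 3 leave busulfan replicate 1 as the only busulfan library, which is then assumed to vary like the other groups, so that they describe 1 library and do not test whether a difference remains.

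The oxidation genes were strongly expressed. Of the 39 genes, 13 averaged over 100 FPKM across the 12 libraries, 23 lay between 10 and 100 FPKM, and 3 lay below 10 FPKM. The highest level was that of Phyh at 872 FPKM, the peroxisomal hydroxylase that starts the breakdown of phytanic acid. Medium-chain acyl-CoA dehydrogenase Acadm followed at 675 FPKM, and then came the electron transfer subunit Etfb at 377 FPKM, the hydroxyacyl-CoA dehydrogenase Hadh at 370.3 FPKM, the fatty acid transporter Cd36 at 356 FPKM and the peroxisomal bifunctional enzyme Ehhadh at 334 FPKM. The lowest were Acadl, listed at 2.01 FPKM with a doubt given below, the muscle-type carnitine palmitoyltransferase Cpt1b at 5.20 FPKM and Pdk4 at 5.21 FPKM. The average of 122 FPKM for Fabp1 stands on 1 library, as described below.

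**Figure D1:**
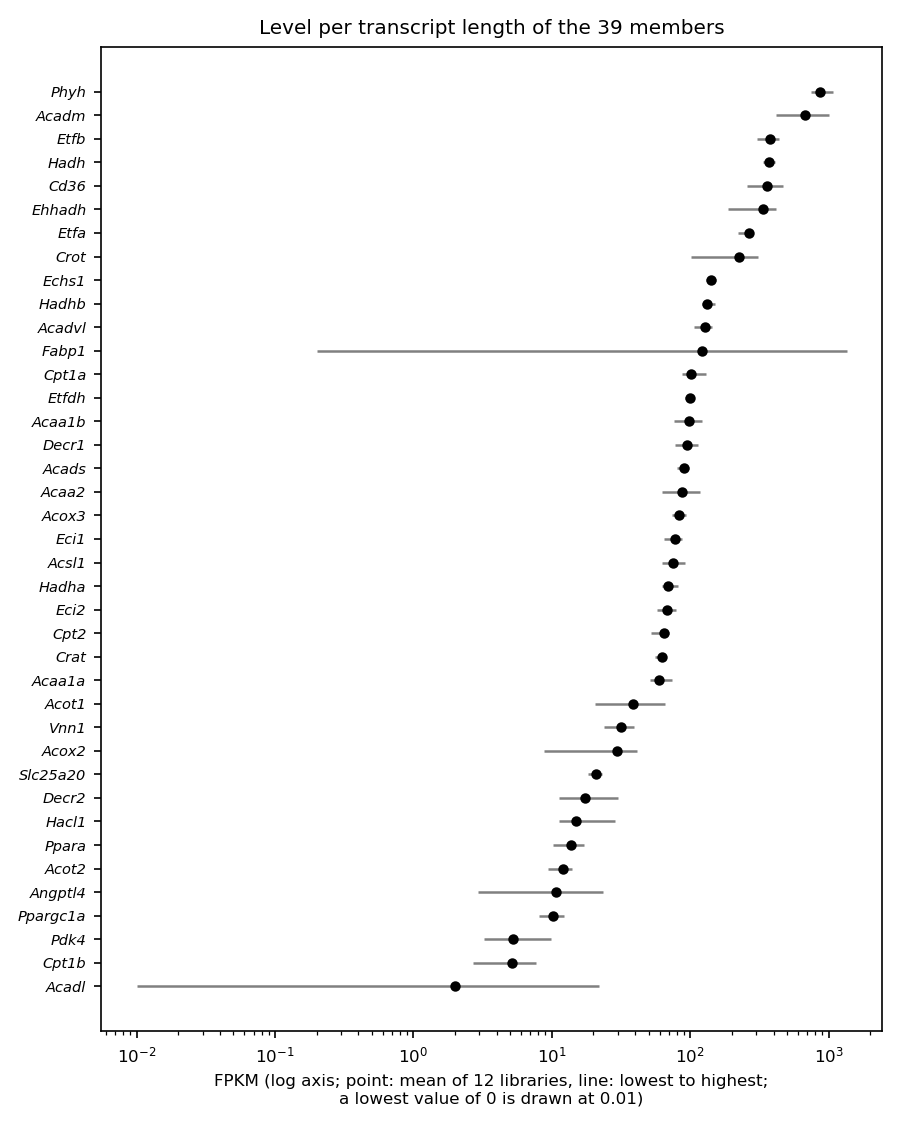
FPKM of each of the 39 genes on a log axis, with the mean of the 12 libraries as a point and a line from the lowest to the highest library. Phyh is highest at 872 FPKM and Acadl lowest at 2.01 FPKM, and Fabp1 and Acadl have by far the longest lines.

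The spread between replicates was small for most genes. The median within-group coefficient of variation of the 39 genes was 12.7%; it was under 10% for 10 genes, between 10% and 30% for 21 and over 30% for 8. Hadhb and Hadha, the beta and alpha subunits of the mitochondrial trifunctional protein, were among the steadiest, with 3.56% and 4.87%, and Hadh had 5.84%. The 8 most variable genes were Fabp1, Acadl, Angptl4, Pdk4, Hacl1, Cpt1b, Acox2 and Acot1. Busulfan replicate 3 was the lowest of the 12 libraries for 18 of the 38 tested genes (47.4%), against 19.2% of all genes tested. The 39 genes together summed to 7688 normalized CPM in that library and to between 9160 and 12137 in the others. Set against the proximal tubule markers, the sum was 13.2 per 100 units of marker signal in busulfan replicate 3, inside the range of 10.96 to 14.4 over all 12 libraries. The 13 markers of other nephron segments were also lowest in that library, at 2873 normalized CPM against 3919 to 6613 elsewhere. In bulk tissue fewer tubule cells and less RNA per cell cannot be told apart. The part of the adrenal and adipose transcripts of busulfan replicate 3 in its low sums was not tested. Busulfan plus AOS replicate 3, the library high in hepatocyte markers, was the highest for 10 of the 38 genes (26.3%), against 10.1% of all genes.

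**Figure D2:**
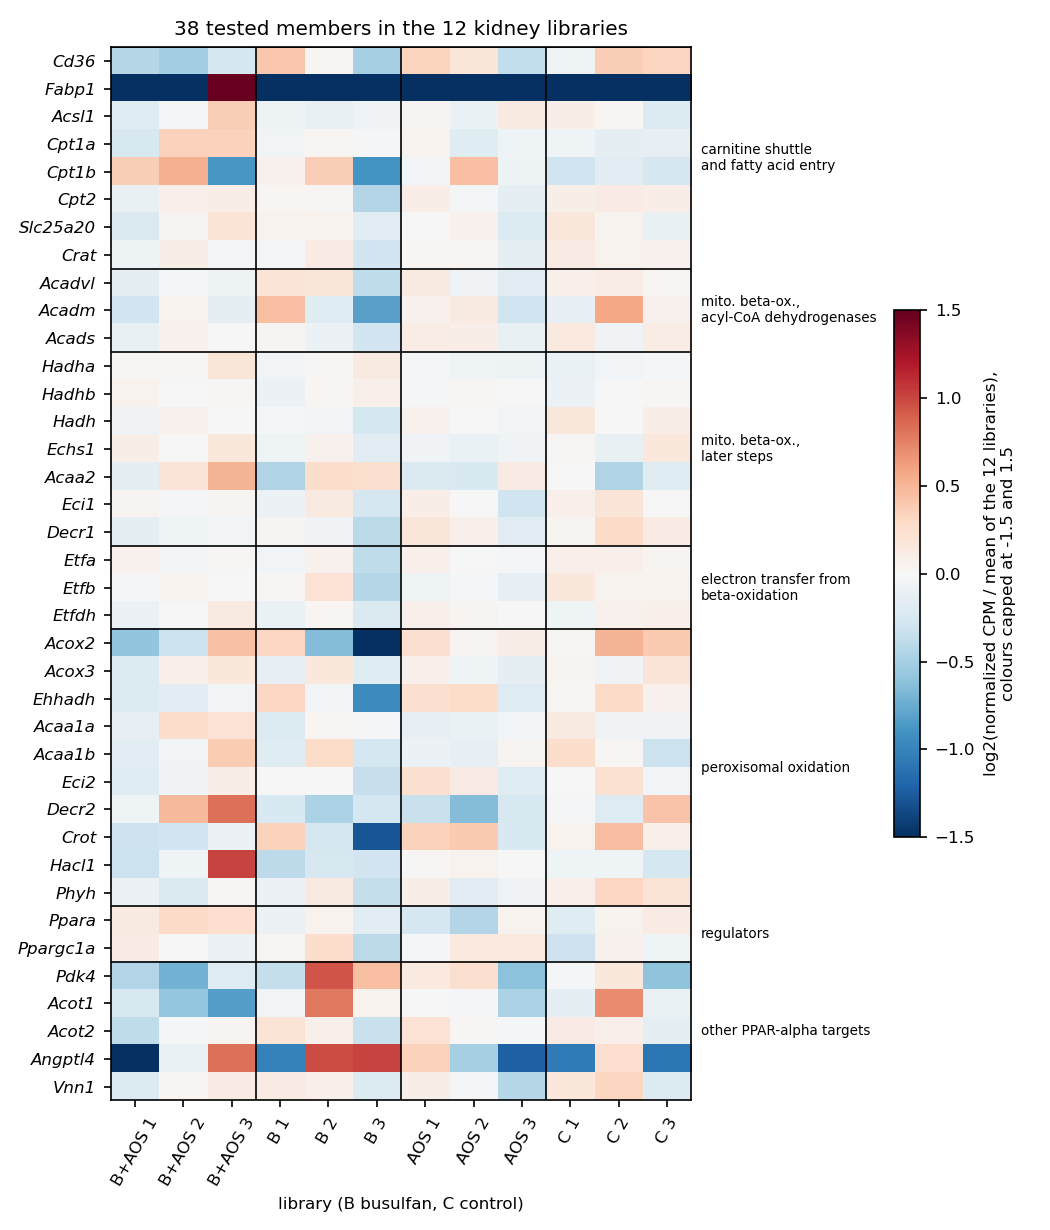
Level of the 38 tested genes in each library as log2 of normalized CPM over the mean of the 12 libraries, with colours capped at -1.5 and 1.5, rows grouped by role and groups in columns from busulfan plus AOS to control. Busulfan replicate 3 (B 3) is the lowest library in 18 of the 38 rows, and Fabp1 is red in busulfan plus AOS replicate 3 alone.

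The promoter windows of the genes were read for the element that PPAR-alpha and RXR bind as a pair, a direct repeat of the hexamer AGGTCA with 1 base between. Windows of 250 bases before to 50 bases after the start site were taken from RefSeq for GRCm38.p6, and 33 of the 39 genes matched a window. The exact repeat, AGGTCA, any base, AGGTCA, read on both strands, was in 0 of their 35 windows and in 0.0396% of all 32851 promoter windows. A relaxed form, with AGGNCA in place of each AGGTCA, which covers the exact form, was in the window of 1 gene, Fabp1, against 0.381% of all windows. The single hexamer AGGTCA was in 7 of the 35 windows and in 16.3% of all windows. No match says only that these letters are not in this window. Shown are the 250 bases before the start site of Fabp1, the one window with the relaxed repeat, which is in capitals and reads on the reverse strand, and of Cpt1a, the rate-limiting shuttle enzyme, with the hexamer in capitals on its reverse strand. Fabp1 lies at chr6:71199629-71199878 (+) and Cpt1a at chr19:3323051-3323300 (+) of GRCm38.p6, printed 5′ to 3′.
Fabp1: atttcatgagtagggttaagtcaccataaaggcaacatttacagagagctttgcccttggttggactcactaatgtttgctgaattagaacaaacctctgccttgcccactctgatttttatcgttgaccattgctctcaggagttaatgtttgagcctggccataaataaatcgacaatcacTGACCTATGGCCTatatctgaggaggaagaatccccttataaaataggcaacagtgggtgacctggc
Cpt1a: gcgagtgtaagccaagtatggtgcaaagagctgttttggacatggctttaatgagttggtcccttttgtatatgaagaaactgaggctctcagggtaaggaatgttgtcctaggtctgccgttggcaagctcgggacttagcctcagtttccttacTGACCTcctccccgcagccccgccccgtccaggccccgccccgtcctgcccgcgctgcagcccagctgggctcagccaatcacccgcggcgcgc
The E-box CACGTG and the D-box core TTANGTAA, which the circadian clock factors read, were in 0 of the 35 windows and in 7.15% and 2.32% of all windows. The windows of Hadha and Hadhb overlap by 228 bases on opposite strands of chromosome 5.

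Busulfan against control asks what a single dose leaves in the kidney. No oxidation gene passed the threshold: edgeR's quasi-likelihood test, adjusted by Benjamini-Hochberg, called 0 of the 38 genes at an adjusted p under 0.05, against 0.0416% of all 14428 genes tested (6 genes). At an unadjusted p under 0.05 it gave 3 genes, Hadh, Decr1 and Phyh, all lower in busulfan kidneys, against 10.1% of all genes, 7.01% higher and 3.06% lower. DESeq2 called 1 gene, Acadl, against 0.843% of the genes that it tested, and limma with voom called 0, against 0.0485%. Of the 38 genes 29 were lower in busulfan kidneys, with a median log2 fold change of -0.11, against 51.0% of all genes lower and a median of -0.005. This lean rested in part on busulfan replicate 3: without it 24 of 39 genes were lower and the median was -0.03. The proximal tubule markers moved with the members, 17 of 20 lower with a median of -0.18, and of the markers of other nephron segments 10 of 13 were lower with a median of -0.09; their part in the result was not tested. All libraries of the busulfan group lay below all control libraries for 4 genes, Hadh, Decr1, Decr2 and Cpt2, against 5.63% of all genes, and above them for 1, Cpt1a, against 5.72%.

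Busulfan plus AOS against AOS is the same question in mice dosed with AOS. Again edgeR with Benjamini-Hochberg adjustment called 0 of the 38 genes, against 0.0693% of all genes (10 genes). Decr2, Ppara and Fabp1, 3 genes, had an unadjusted p under 0.05, all higher in busulfan plus AOS kidneys, against 9.16% of all genes, 5.2% higher and 3.96% lower. DESeq2 called 1 gene, Decr2, against 0.558% of the genes it tested, and limma with voom called 0, against 0.201%. Of the 38 genes 21 were higher and 17 lower, against 49.0% of all genes lower, and their median log2 fold change was 0.03. Without busulfan plus AOS replicate 3, 23 of 39 genes were lower and the median was -0.04. For 4 genes, Decr2, Ppara, Hadha and Echs1, all busulfan plus AOS libraries lay above all AOS libraries, against 8.49% of all genes; for none of the 38 did they lie below, against 8.68%.

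These busulfan comparisons share no library. Of the 38 genes 13 (34.2%) were lower in both, against 28.0% of all genes, and 5 (13.2%) were higher in both, against 28.1% of all genes. Averaged over both comparisons, 6 libraries against 6, edgeR with Benjamini-Hochberg adjustment called 0 of the 38 genes, against 0.194% of all genes (28 genes), and DESeq2 and limma with voom also called 0, against 1.5% and 0.416%. Hadha, higher, and Decr1, lower, had an unadjusted p under 0.05, against 12.1% of all genes, 7.59% higher and 4.55% lower. All 6 busulfan-treated libraries lay above the 6 others for 0 of the 38 genes, against 0.769% of all genes, and below them for 0, against 0.229%. The median log2 fold change of the 38 genes was -0.02, and 23 were lower, against 50.3% of all genes. Without busulfan replicate 3, 18 of 39 genes were lower, against 50.9% of all genes, and the median was 0.01. Without busulfan plus AOS replicate 3, 27 of 39 were lower, against 50.5% of all genes, and the median was -0.06.

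**Figure D3:**
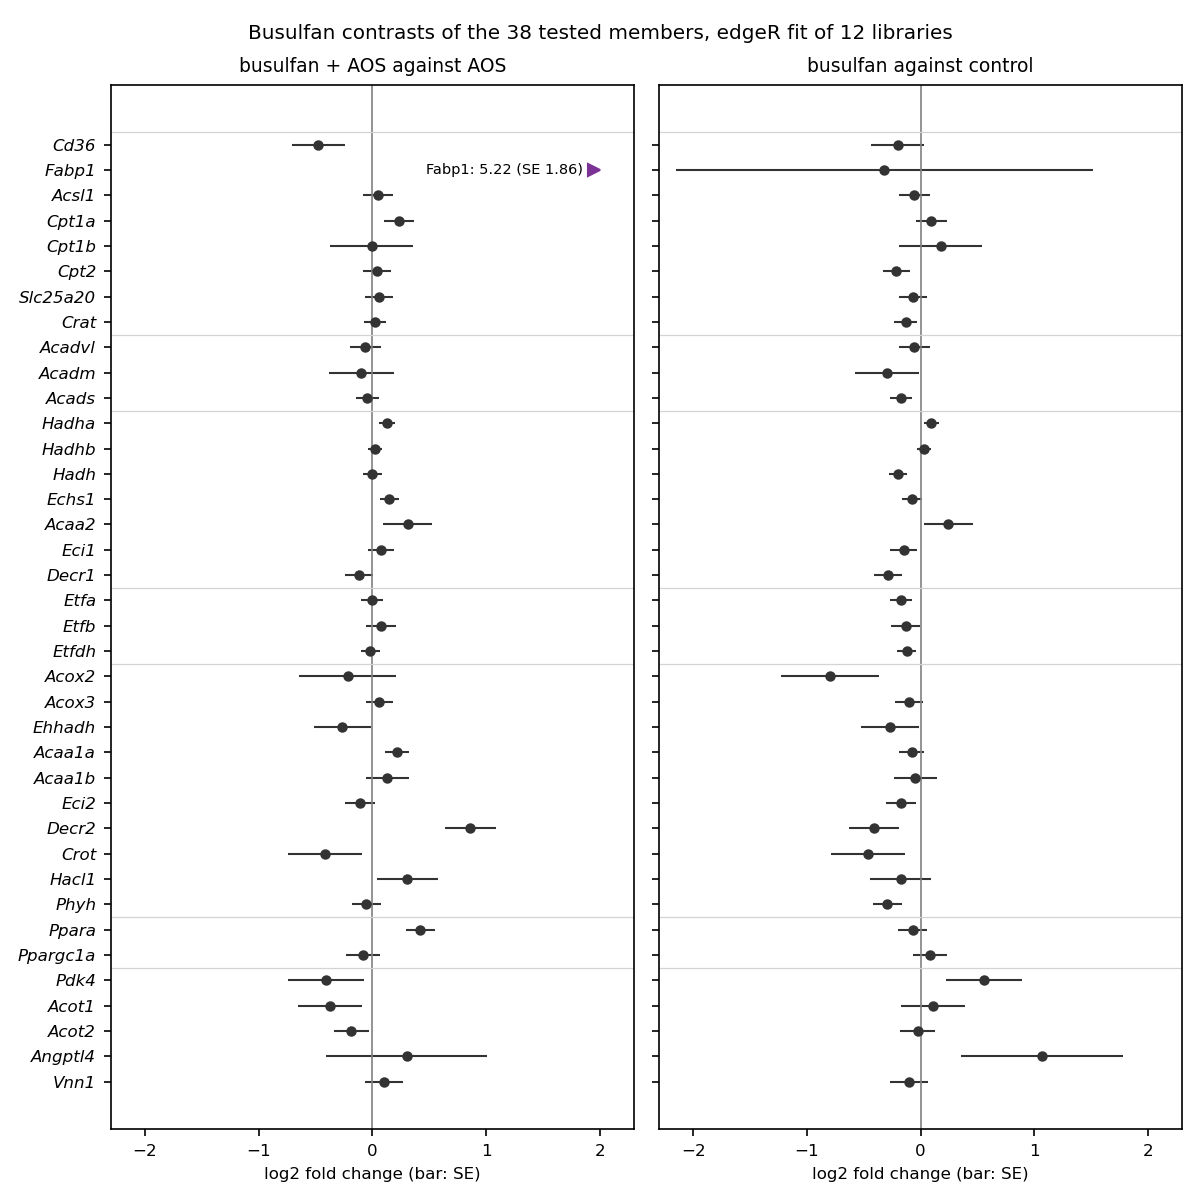
Log2 fold change with its standard error for the 38 tested genes, in role order from top to bottom, for busulfan plus AOS against AOS (left) and busulfan against control (right). Decr2 lies at 0.86 on the left and at -0.41 on the right, and Fabp1 runs off the left panel at 5.22.

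AOS against control asks what the oligosaccharides do without busulfan. In edgeR with Benjamini-Hochberg adjustment 0 of the 38 genes and 0.0% of all genes were called, 0 of the 38 reached an unadjusted p under 0.05, against 3.59% of all genes (1.62% higher and 1.97% lower), and DESeq2 and limma with voom called 0, against 0.0426% and 0.00693%. Of the 38 genes 25 were lower in AOS kidneys and the median log2 fold change was -0.07, against 49.0% of all genes lower. Of the proximal tubule markers 15 of 20 were lower there, with a median of -0.14, and their part in the result was not tested. All AOS libraries lay above all control libraries for Hacl1 and Cpt1b, against 6.17% of all genes, and below them for Etfb, Crat and Decr2, against 6.75%.

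Busulfan plus AOS against busulfan asks what AOS adds after busulfan. No gene was called by edgeR with Benjamini-Hochberg adjustment, in the 38 or in the whole table (0.0%), and among the 38 DESeq2 and limma with voom also called 0, against 0.157% and 0.0%. An unadjusted p under 0.05 was found for 6 of the 38 genes, against 8.7% of all genes (4.57% higher and 4.12% lower): Decr2, Fabp1, Hacl1 and Ppara were higher in busulfan plus AOS kidneys, and Acot1 and Pdk4 were lower. Of the 38 genes 28 were higher and 10 lower, against 52.2% of all genes lower, and their median was 0.06 on the log2 scale. Without busulfan replicate 3 and busulfan plus AOS replicate 3, 24 of 39 genes were lower and the median was -0.04. All busulfan plus AOS libraries lay above all busulfan libraries for Decr2 and Ppara, against 4.2% of all genes, and below them for Acot1, against 4.19%.

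Averaged over both AOS comparisons, edgeR with Benjamini-Hochberg adjustment called 0 of the 38 genes and 0.0% of all genes, and DESeq2 and limma with voom called 0 of the 38, against 0.143% and 0.0%. At an unadjusted p under 0.05 Acot1 was lower and Fabp1 higher, 2 genes in all, against 5.77% of all genes, 3.49% higher and 2.28% lower. For 0 of the 38 genes did the 6 libraries with AOS lie wholly above or wholly below the 6 without, against 0.118% and 0.152% of all genes. The effect was above 0 for 22 of the 38 genes, against 53.2% of all genes below 0, and its median was 0.01. Without the libraries high in adrenal and hepatocyte markers 26 of 39 genes were below 0, against 50.7% of all genes, with a median of -0.08. Without busulfan replicate 3 alone it was also below 0 for 26 of 39 genes, against 49.9% of all genes, with a median of -0.055. The interaction, which tests whether the busulfan effect differs with AOS, also had 0 calls among the 38 and 0.0% over all genes in edgeR with Benjamini-Hochberg adjustment, and among the 38 DESeq2 and limma with voom called 0, against 0.0585% and 0.0%. Decr2 and Ppara, 2 of the 38, had an unadjusted p under 0.05, against 5.89% of all genes, 2.97% positive and 2.92% negative. The interaction was positive for 29 of the 38 genes, against 51.7% of all genes negative, with a median of 0.15, which became 0.02 without the libraries high in adrenal and hepatocyte markers. It was also positive for 17 of the 20 proximal tubule markers, with a median of 0.17, and their part in the result was not tested.

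At the entry step, Cd36, which takes up long-chain fatty acids at the cell surface, had 732, 689 and 826 normalized CPM in busulfan plus AOS kidneys and 1304, 996 and 696 in busulfan kidneys. Cd36 had 1242, 1118 and 762 normalized CPM in AOS kidneys and 940.2, 1268 and 1234 in control kidneys. AOS replicate 3 and busulfan replicate 3 lay inside the busulfan plus AOS range. Its log2 fold change was -0.47 ± 0.23 (SE) for busulfan plus AOS against AOS (adjusted p = 0.581, edgeR) and -0.34 ± 0.16 for the average busulfan effect (adjusted p = 0.436, edgeR), neither past the threshold. Without the libraries high in adrenal and hepatocyte markers these were -0.553 and -0.275. Without both libraries high in adipose markers the average busulfan effect was -0.15, with busulfan replicate 1 as the only library of its group.

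Fabp1, the liver fatty acid-binding protein that carries fatty acids through the cytosol, had 4.36, 1.70 and 502 normalized CPM in busulfan plus AOS kidneys, 4.90, 0.0698 and 4.98 in busulfan kidneys, 10.2, 2.19 and 1.24 in AOS kidneys and 5.30, 4.98 and 2.25 in control kidneys. Busulfan plus AOS replicate 3 held 6907 of its reads, 91.9% of the sum over the 12 libraries, and busulfan replicate 2 held 1 read. The fitted log2 fold changes of 5.22 ± 1.86 against AOS and 5.66 ± 1.91 against busulfan (adjusted p = 0.476 and 0.477, edgeR) were -0.58 and -0.14 without that library. The hepatocyte marker Alb had 10062 normalized CPM in the same library and 8.10 to 182 in the other 11; the part of hepatocyte transcripts in the result was not tested.

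**Figure D4:**
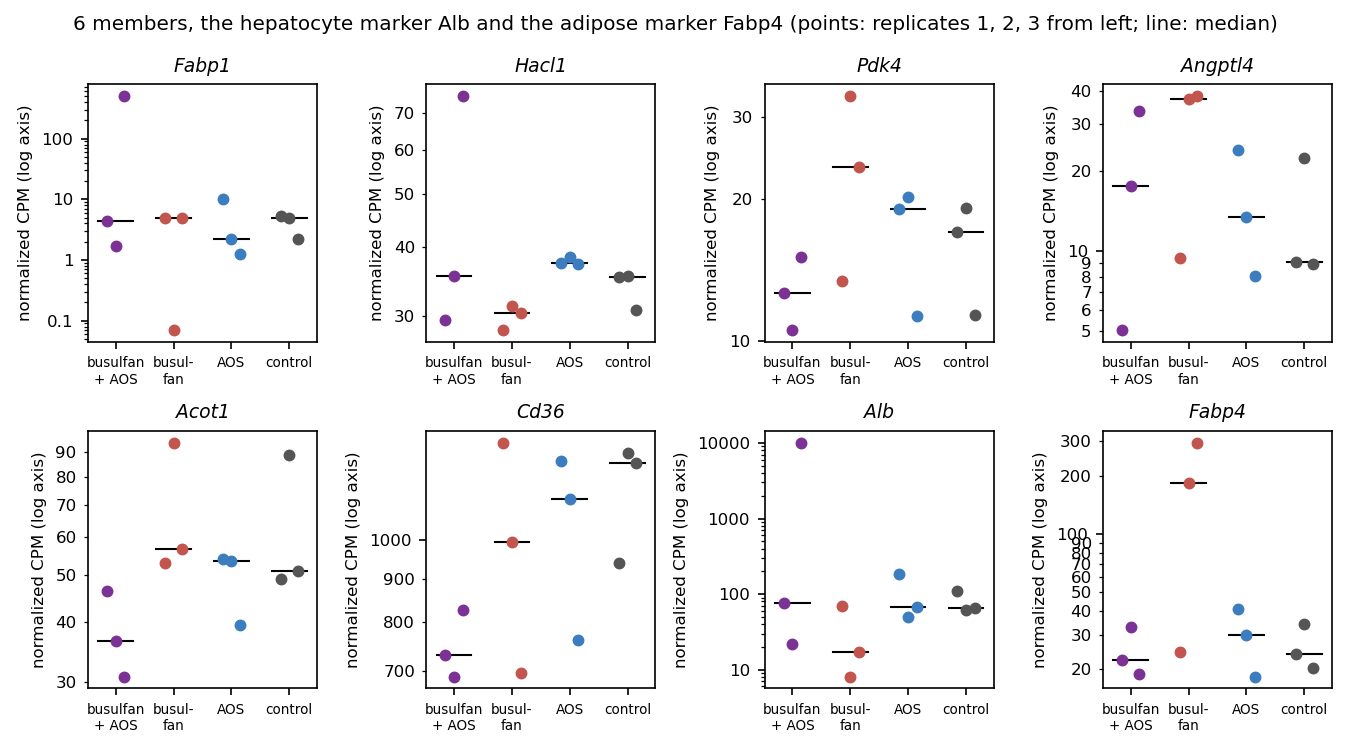
Normalized CPM on log axes for Fabp1, Hacl1, Pdk4, Angptl4, Acot1, Cd36, the hepatocyte marker Alb and the adipose marker Fabp4, with 1 point per library (replicates 1, 2 and 3 from left to right in each group) and a line at the group median. Fabp1, Hacl1 and Alb peak in busulfan plus AOS replicate 3, and Fabp4 peaks in busulfan replicates 2 and 3 at 182 and 295.4.

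Cpt1a, the liver-type carnitine palmitoyltransferase that sets the rate of entry into mitochondria, had 353, 529.6 and 529 normalized CPM in busulfan plus AOS kidneys, 405, 425 and 412 in busulfan kidneys, 433, 367 and 399.9 in AOS kidneys and 398, 381 and 383 in control kidneys. Replicates 2 and 3 of the busulfan plus AOS group were the highest of all 12 libraries and replicate 1 of the same group was the lowest. All 3 busulfan libraries lay just above the 3 control libraries. Of the other shuttle genes, the acyl-CoA synthetase Acsl1 ranged from 241.8 to 361 normalized CPM and the inner-membrane transferase Cpt2 from 105.7 to 155.8. The carnitine-acylcarnitine carrier Slc25a20 ranged from 29.5 to 39.5 and carnitine acetyltransferase Crat from 145.4 to 192.4. The within-group coefficient of variation was 12.9% for Cpt1a and 12.7% for Acsl1. Cpt2 was -0.21 ± 0.12 (log2, SE) in busulfan against control (adjusted p = 0.565, edgeR) and -0.08 without busulfan replicate 3, which held its lowest value. Cpt1b, the muscle form, ranged from 7.68 to 20.6 normalized CPM, and its reads may include those of an overlapping RefSeq gene, Gm44502, that spans all of it.

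The acyl-CoA dehydrogenases carry out the first step of each round, each on its own chain length. Acadm ranged from 742 to 1949 normalized CPM, the very long-chain enzyme Acadvl from 199.8 to 297 and the short-chain enzyme Acads from 127.9 to 172.5, each with its lowest library in busulfan replicate 3. Acadl, the long-chain enzyme, was listed close to 0 in most libraries, although the gene is usually expressed in kidney. It had 558.94 estimated reads in control replicate 2, 36.87 in control replicate 3 and at most 5.33 in each of the other 10 libraries, so that 90.8% of its reads came from 1 library. It did not pass the filter on low counts. Without the filter its adjusted p for busulfan against control was 0.431 in edgeR, while DESeq2 gave 0.00559. The part of control replicate 2 in that call was not tested. Its counts were whole numbers in 8.3% of the libraries, so that nearly all of them are estimates that share reads out. How its reads were assigned was not tested, and its listed level is therefore uncertain.

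Among the later steps, Hadh had 591, 639.6 and 611 normalized CPM in busulfan plus AOS kidneys, 604, 593 and 508 in busulfan kidneys, 639, 607 and 594 in AOS kidneys and 686, 616 and 653 in control kidneys. The busulfan libraries all lay below the control libraries, by a log2 fold change of -0.20 ± 0.08 (SE; adjusted p = 0.465, edgeR), and the gap was -0.12 without the libraries high in adrenal and hepatocyte markers. Decr1, the mitochondrial dienoyl-CoA reductase needed for polyunsaturated chains, had 240.3, 254 and 259 normalized CPM in busulfan plus AOS kidneys, 272, 256 and 201 in busulfan kidneys, 301, 281 and 237 in AOS kidneys and 274, 324 and 289.6 in control kidneys. Its log2 fold change was -0.28 ± 0.12 in busulfan against control (adjusted p = 0.487, edgeR) and -0.20 ± 0.09 in the average busulfan effect (adjusted p = 0.399, edgeR); the first was -0.16 without the libraries high in adrenal and hepatocyte markers. Busulfan replicate 3 was the lowest library for both genes.

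Hadha had 259, 257 and 288 normalized CPM in busulfan plus AOS kidneys, 248, 258 and 279 in busulfan kidneys, 249, 244 and 242 in AOS kidneys and 238, 248 and 250 in control kidneys. The highest values were in busulfan plus AOS replicate 3 and busulfan replicate 3, the libraries high in hepatocyte and adrenal markers, and the busulfan plus AOS libraries all exceeded the AOS libraries. The average busulfan effect was 0.11 ± 0.05 (log2, SE; adjusted p = 0.399, edgeR) and 0.04 without the 3 libraries high in adrenal, adipose or hepatocyte markers, where busulfan replicate 1 stands alone for its group. Hadhb ranged only from 237.9 to 266.4 normalized CPM. Counts were whole numbers in 8.3% of the libraries for Hadha and in 16.7% for Hadhb, so that most are estimates that share reads out. Of the others, the hydratase Echs1 ranged from 172.3 to 215.7 normalized CPM, the thiolase Acaa2 from 86.3 to 168 and the isomerase Eci1 from 60.1 to 84.6. The electron transfer genes Etfa, Etfb and Etfdh, which pass electrons to the respiratory chain, ranged from 271.5 to 372.6, 214.5 to 335.1 and 181.8 to 233 normalized CPM, each lowest in busulfan replicate 3. Summed, these 3 genes had 863 ± 14.8 normalized CPM in busulfan plus AOS kidneys, 807 ± 128 in busulfan kidneys, 851 ± 23.7 in AOS kidneys and 892 ± 6.85 in control kidneys (SD, n = 3 each).

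The peroxisomal enzymes leaned the same way in busulfan against control. All 10 were lower in busulfan kidneys, against 51.0% of all genes and 17 of the 20 proximal tubule markers. Their median log2 fold change was -0.22, against -0.18 for those markers, whose part in the result was not tested. None was called by edgeR; 1, Phyh, had an unadjusted p under 0.05, against 3.06% of all genes lower at that p, DESeq2 called 0, and without busulfan replicate 3, 8 of 10 were lower with a median of -0.12. In busulfan plus AOS against AOS 5 were higher and 5 lower, with a median of 0.006. Without busulfan plus AOS replicate 3, the library high in hepatocyte markers, 2 were higher and 8 lower there, with a median of -0.15. In AOS against control 8 of the 10 were lower, with a median of -0.08, against 49.0% of all genes. Their sum was 3338 ± 318 normalized CPM in busulfan plus AOS kidneys, 3234 ± 802 in busulfan kidneys, 3673 ± 377 in AOS kidneys and 3948 ± 316 in control kidneys (SD, n = 3 each), and the groups overlapped.

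Phyh had 1098, 1001 and 1189 normalized CPM in busulfan plus AOS kidneys, 1099, 1279 and 912 in busulfan kidneys, 1245, 1037 and 1125 in AOS kidneys and 1232, 1453 and 1344 in control kidneys. Its log2 fold change was -0.29 ± 0.13 (SE) in busulfan against control (adjusted p = 0.487, edgeR), which was -0.18 without the libraries high in adrenal and hepatocyte markers, and -0.24 ± 0.13 in AOS against control (adjusted p = 1.0, edgeR). Busulfan replicate 2 and AOS replicate 1 lay inside the control range. Ehhadh, which hydrates and dehydrogenates peroxisomal enoyl-CoAs, had 829, 852 and 929.5 normalized CPM in busulfan plus AOS kidneys, 1185, 932 and 495 in busulfan kidneys, 1130.2, 1163 and 841 in AOS kidneys and 976, 1172 and 1001 in control kidneys. The busulfan group held both its highest and its lowest library. Acox2, the branched-chain acyl-CoA oxidase, ranged from 19.8 to 100.9 normalized CPM with its lowest value in busulfan replicate 3, and its log2 fold change of -0.79 ± 0.43 in busulfan against control (adjusted p = 0.553, edgeR) was -0.01 without the 3 libraries high in markers of other tissues, where the busulfan group is replicate 1 alone. Crot, the peroxisomal octanoyltransferase, ranged from 251.9 to 842.7 normalized CPM, and its average busulfan effect of -0.44 ± 0.23 (adjusted p = 0.459, edgeR) was -0.18 without those libraries, again with 1 busulfan library.

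Decr2, the peroxisomal dienoyl-CoA reductase, had the lowest p of the 38 genes in the interaction. It had 33.2, 48.7 and 61.8 normalized CPM in busulfan plus AOS kidneys, 29.6, 25.0 and 28.9 in busulfan kidneys, 27.6, 22.1 and 29.4 in AOS kidneys and 34.0, 30.3 and 46.6 in control kidneys. Every busulfan plus AOS library lay above every AOS and every busulfan library, while every AOS and every busulfan library lay below every control library. The log2 fold change was 0.86 ± 0.22 (SE) for busulfan plus AOS against AOS (adjusted p = 0.443, edgeR) and -0.41 ± 0.22 for busulfan against control (adjusted p = 0.555, edgeR). It was 0.78 ± 0.22 for busulfan plus AOS against busulfan (adjusted p = 0.477, edgeR) and -0.49 ± 0.22 for AOS against control (adjusted p = 1.0, edgeR). The interaction was 1.27 ± 0.32 with an unadjusted p of 0.00216 and an adjusted p of 0.794 (edgeR). DESeq2 gave 0.86 ± 0.24 with an adjusted p of 0.0473 for busulfan plus AOS against AOS. Without the libraries high in adrenal and hepatocyte markers that log2 fold change was 0.63 and the interaction 1.07. Without these and busulfan replicate 2, which leaves 2 busulfan plus AOS libraries against 1 busulfan library, the log2 fold change between these groups was 0.47. Decr2 had no whole-number count in any library, so that its reads were shared out, while no RefSeq gene overlaps its span. Sampling times of the mice are not given, and circadian genes set some libraries apart. Busulfan plus AOS replicates 2 and 3 were the 2 highest libraries for Decr2, with control replicate 3 next at 46.6 normalized CPM. The same 2 libraries stood apart in the clock genes, and replicate 1 of that group did not. Busulfan replicate 3 stood apart in Nr1d1 and Dbp and had 28.9 normalized CPM of Decr2. Nr1d1, a clock repressor, had 20.3, 142 and 132 normalized CPM in busulfan plus AOS kidneys, 11.9, 12.4 and 69.9 in busulfan kidneys and 4.69 to 31.1 in AOS and control kidneys. Dbp, a clock output factor, had 1.45, 114 and 88.8 normalized CPM in busulfan plus AOS kidneys, 2.35, 1.47 and 16.4 in busulfan kidneys and 1.53 to 3.56 in AOS and control kidneys. Arntl, which runs opposite to both, had 44.1, 7.84 and 8.14 normalized CPM in busulfan plus AOS kidneys, 44.3, 39.7 and 29.9 in busulfan kidneys and 37.97 to 45.2 in AOS and control kidneys. Busulfan plus AOS replicates 2 and 3 were the highest pair of libraries for 4 of the 38 genes (10.5%), Decr2, Ppara, Cpt1a and Acaa1a, against 4.08% of all genes, and the part of the clock genes in these results was not tested.

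**Figure D5:**
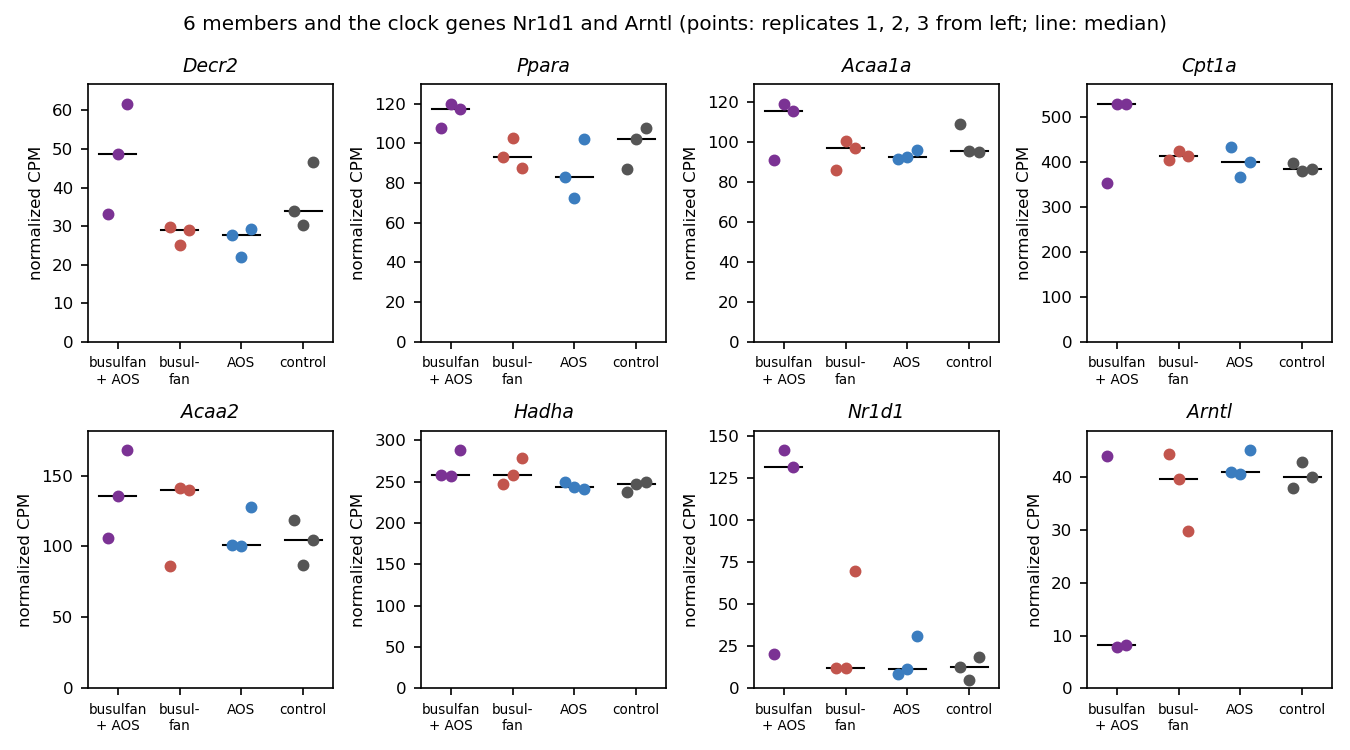
Normalized CPM of Decr2, Ppara, Acaa1a, Cpt1a, Acaa2 and Hadha and of the clock genes Nr1d1 and Arntl, with 1 point per library (replicates 1, 2 and 3 from left to right in each group) and a line at the group median. Decr2 runs from 33.2 to 61.8 in busulfan plus AOS kidneys and from 22.1 to 29.6 in busulfan and AOS kidneys, and Arntl is 7.84 and 8.14 in busulfan plus AOS replicates 2 and 3.

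Hacl1, the peroxisomal lyase that follows Phyh in alpha-oxidation, had 29.6, 35.5 and 75.0 normalized CPM in busulfan plus AOS kidneys, 28.3, 31.4 and 30.4 in busulfan kidneys, 37.4, 38.4 and 37.4 in AOS kidneys and 35.4, 35.5 and 30.8 in control kidneys. The value of 75.0 came from the library high in hepatocyte markers, and all others lay between 28.3 and 38.4. Its log2 fold change was 0.64 ± 0.27 (SE) for busulfan plus AOS against busulfan (adjusted p = 0.554, edgeR) and 0.40 ± 0.19 for the average AOS effect (adjusted p = 0.851, edgeR), and without that library these were 0.11 and 0.13. Acaa1a, a peroxisomal thiolase, ranged from 85.8 to 119.1 normalized CPM and was 0.22 ± 0.11 in busulfan plus AOS against AOS (adjusted p = 0.575, edgeR). Acaa1a and its paralog Acaa1b had no whole-number count in any library, and their transcripts are 96.0% identical over 1450 aligned bases, so that their split is uncertain. Acox3 ranged from 280.8 to 369.9 normalized CPM, Acaa1b from 120.5 to 195 and the isomerase Eci2 from 74.9 to 112.

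Ppara itself had 107.8, 120.0 and 117 normalized CPM in busulfan plus AOS kidneys, 93.0, 102 and 87.4 in busulfan kidneys, 82.9, 72.4 and 102 in AOS kidneys and 86.9, 102 and 107.6 in control kidneys. The busulfan plus AOS libraries were the 3 highest of the 12, with control replicate 3 just below them. The log2 fold change was 0.42 ± 0.13 (SE) for busulfan plus AOS against AOS (adjusted p = 0.476, edgeR), 0.29 ± 0.13 for busulfan plus AOS against busulfan (adjusted p = 0.566, edgeR) and 0.49 ± 0.18 for the interaction (adjusted p = 0.794, edgeR), none past the threshold. Ppargc1a, the coactivator PGC-1alpha that promotes mitochondrial biogenesis, had 70.0, 64.7 and 60.5 normalized CPM in busulfan plus AOS kidneys, 65.1, 77.4 and 48.9 in busulfan kidneys, 63.7, 71.3 and 71.3 in AOS kidneys and 51.9, 67.3 and 61.4 in control kidneys. All 4 groups overlapped for Ppargc1a.

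The remaining 5 genes are PPAR-alpha targets outside the oxidation routes. In busulfan plus AOS against busulfan all 5 were lower, against 52.2% of all genes, with a median log2 fold change of -0.595. The values were -0.87 for Pdk4, -0.84 for Acot1, -0.595 for Angptl4 and -0.11 for Acot2, while Vnn1 was almost unchanged at -0.01. None was called by edgeR or DESeq2, and 2 had an unadjusted p under 0.05, against 4.12% of all genes lower at that p. Without both libraries high in adipose markers, 3 busulfan plus AOS libraries against 1 busulfan library, 4 of 5 were lower with a median of -0.13. Of the 5 genes 3 were higher in busulfan against control, with a median of 0.11, 2 were higher in busulfan plus AOS against AOS, with a median of -0.18, and 3 were higher in AOS against control, with a median of 0.05. Pdk4, the kinase that shuts off pyruvate dehydrogenase and so spares glucose, had 12.7, 10.5 and 15.1 normalized CPM in busulfan plus AOS kidneys, 13.4, 33.2 and 23.5 in busulfan kidneys, 19.1, 20.2 and 11.3 in AOS kidneys and 17.1, 19.2 and 11.3 in control kidneys. Its high values were in busulfan replicates 2 and 3, the libraries high in adipose markers. Its log2 fold change of -0.87 ± 0.33 (SE) for busulfan plus AOS against busulfan (adjusted p = 0.529, edgeR) was -0.07 without both of them, where the busulfan group is replicate 1 alone, at 13.4 normalized CPM. Angptl4, a secreted inhibitor of lipoprotein lipase, had 5.05, 17.6 and 33.5 normalized CPM in busulfan plus AOS kidneys, 9.38, 37.1 and 38.2 in busulfan kidneys, 24.0, 13.4 and 8.08 in AOS kidneys and 9.07, 22.4 and 8.94 in control kidneys. It is also made by fat tissue, and both adipose libraries held its 2 highest values, but the groups overlapped. The part of adipose transcripts in these values was not tested.

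Acot1, a cytosolic acyl-CoA thioesterase, had 46.2, 36.5 and 30.8 normalized CPM in busulfan plus AOS kidneys, 53.0, 94.3 and 56.6 in busulfan kidneys, 54.0, 53.6 and 39.3 in AOS kidneys and 49.1, 88.7 and 50.9 in control kidneys. All 3 busulfan plus AOS libraries lay below all busulfan libraries, by -0.84 ± 0.28 (log2, SE; adjusted p = 0.477, edgeR), and the average AOS effect was -0.60 ± 0.20 (adjusted p = 0.851, edgeR). Without the 3 libraries high in markers of other tissues these were -0.35 and -0.35, with busulfan replicate 1 as the only busulfan library. Acot1 and the mitochondrial Acot2 lie close together on chromosome 12, their transcripts are 94.3% identical over 1330 aligned bases, and neither had a whole-number count, so that their split is uncertain. Acot2 ranged from 17.8 to 26.9 normalized CPM. Vnn1, a pantetheinase that feeds coenzyme A recycling, had 57.9, 68.0 and 72.8 normalized CPM in busulfan plus AOS kidneys, 72.6, 70.0 and 57.6 in busulfan kidneys, 70.9, 65.2 and 49.4 in AOS kidneys and 74.1, 83.2 and 57.8 in control kidneys, and all groups overlapped.

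Further genes of the pathway were followed in 4 lists. Of 44 further PPAR-alpha targets tested, 0 passed in any comparison in edgeR; in busulfan against control 6 were higher and 4 lower at an unadjusted p under 0.05, against 7.01% and 3.06% of all genes. The genes of lowest p there were the lipid droplet genes Plin4 at 4.69 ± 1.25 and Cidec at 5.65 ± 1.66 (log2, SE; adjusted p = 0.411 and 0.416, edgeR), both also on the adipose marker list, and Cyp4a31 at -1.18 ± 0.36 (adjusted p = 0.416, edgeR). In busulfan plus AOS against AOS 4 were higher and 1 lower at an unadjusted p under 0.05, against 5.2% and 3.96% of all genes. Plin2, which coats lipid droplets, had 74.2, 83.7 and 134 normalized CPM in busulfan plus AOS kidneys and 48.8, 46.0 and 69.7 in AOS kidneys, a log2 fold change of 0.83 ± 0.27 (adjusted p = 0.476, edgeR), while control kidneys had 87.3, 49.1 and 84.5. The omega-hydroxylases Cyp4a10 and Cyp4a14 ranged from 90.1 to 308.4 and from 3.94 to 17.1 normalized CPM over the 12 libraries.

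Of 45 further peroxisomal genes 42 were lower in busulfan kidneys than in control kidneys, against 51.0% of all genes and 17 of the 20 proximal tubule markers, with a median log2 fold change of -0.16, and 34 of 45 with a median of -0.05 without busulfan replicate 3. None of the 45 passed in any comparison in edgeR, and 2 higher and 4 lower had an unadjusted p under 0.05 in that one, against 7.01% and 3.06% of all genes. Of 34 further mitochondrial fatty acid genes 27 were lower in the same comparison, with a median of -0.12, and 19 of 34 with a median of -0.02 without busulfan replicate 3. Of 33 nuclear receptors, cofactors and energy sensors 19 were lower, with a median of -0.08. Pparg, the fat-cell receptor of the family, had 0.896, 6.42 and 6.66 normalized CPM in busulfan kidneys and 1.09, 1.80 and 0.799 in control kidneys, high in the adipose libraries.

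Cpt1c, the brain-type carnitine palmitoyltransferase on the mitochondrial list, came closest to the threshold. It had 1.45, 1.70 and 1.962 normalized CPM in busulfan plus AOS kidneys, 1.31, 2.10 and 4.98 in busulfan kidneys, 0.563, 0.684 and 0.414 in AOS kidneys and 0.436, 0.649 and 0.436 in control kidneys. All 6 busulfan-treated libraries, with 19 to 83 reads, lay above all 6 others, with 6 to 10 reads, a pattern found in 0.769% of all genes. The average busulfan effect was 2.03 ± 0.34 (log2, SE) with an adjusted p of 0.0571 in edgeR, 0.0209 in limma with voom, 0.259 in limma on log2(FPKM + 1) and 0.000582 in DESeq2. Leaving out 1 library moved the adjusted p in edgeR below the threshold in 2 cases, to 0.00901 without busulfan replicate 1 and to 0.0278 without busulfan replicate 3. Without both adipose libraries it was 1.47 with an adjusted p of 0.184 in edgeR, with 1 busulfan library left beside the 3 of busulfan plus AOS. The level was low, between 0.414 and 4.98 normalized CPM.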

How the data were processed

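RNA was sequenced from 12 mouse kidney libraries. The authors deposited estimated counts per gene, with decimals where reads were shared among transcripts, and a second set of values that behaves as FPKM: a deposited FPKM value is the count per transcript length and per library total, within 0.42%, and the file header names it only as expression. The build was mm10 per the submitters' processing notes; for the aligner and the quantifier, name and version were not given in the sources used here. Between 76.8% and 78.8% of counts per library were whole within 0.005.

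Rounded to whole numbers, they were compared in edgeR 4.0.16 (quasi-likelihood, TMM scaling, filterByExpr) in R 4.3.3, in 1 fit of 12 libraries and 4 group means with 8 residual degrees of freedom. Benjamini-Hochberg adjustment covered all 14428 genes tested, with a threshold of 0.05, and the biological coefficient of variation was 26.8%. Each standard error printed for an edgeR fold change was derived from the test: the absolute log2 fold change over the square root of its F statistic. DESeq2 1.42.0 and limma 3.58.1 (voom with quality weights, and log2(FPKM + 1)) were alternatives, as were other scalings, no filter, a replicate block, fits of only the compared groups and fits that leave out libraries. The fit was tested on simulated counts. Figures used Python 3.11.15 and matplotlib 3.10.9.

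The 39 genes and the gene and marker lists were chosen with earlier results of these data known, and the clock genes were added after the data were seen. Fold changes are printed for genes called in a comparison and for up to 6 of lowest p per comparison; values per library for the 3 of lowest p, the regulators and the classic targets. Acaa1a, Acaa1b, Acot1, Acot2 and genes that overlap another gene are uncertain in their counts. The same holds for Decr2, Acads, Acadvl and Cpt1b, which had no whole-number count in any library. Counts were whole numbers in 8.3% of the libraries for Acadl and Hadha, 16.7% for Hadhb and 25.0% for Eci2, so that these are uncertain too. Some genes of the further lists are not reported here.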

Additional observations from a re-analysis of the deposited data

Results flagged for a closer look

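Decr2 drew attention because its busulfan effect ran in opposite directions without and with AOS in every library: all 3 busulfan plus AOS libraries lay above all 3 AOS libraries, and all 3 busulfan libraries lay below all 3 control libraries. The busulfan and control libraries were close, with 29.6 normalized CPM in busulfan replicate 1 and 30.3 in control replicate 2. The AOS effect also ran in opposite directions without and with busulfan. Both views share 1 interaction, 1.27 on the log2 scale by construction, so that the second adds no further evidence. Its test did not pass (adjusted p = 0.794, edgeR with Benjamini-Hochberg adjustment).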

How the results depend on the processing

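Of the alternatives run for the named genes, none of them called in the main fit, 873 values kept their direction and stayed uncalled. Another 14 reversed and 1 became stronger, Decr2 in busulfan plus AOS against AOS under DESeq2. A missing adjusted p, as for Fabp1 under DESeq2, was taken as uncalled. Counts of genes called and medians are not in this tally. Genes called among the members were 1 in busulfan against control and 1 in busulfan plus AOS against AOS under DESeq2, and 0 to 0 when single replicates were left out.

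Fabp1 reversed in busulfan plus AOS against AOS to -0.584 without busulfan plus AOS replicate 3 and to -0.582 without the libraries high in adrenal and hepatocyte markers or all 3 libraries that stand apart. Against busulfan it was -0.14 and, without all 3, -0.685. For Fabp1, average busulfan effect, the value was -0.653 under limma voom, -0.453 without busulfan plus AOS replicate 3, -0.666 without the adrenal and hepatocyte libraries and -0.179 without all 3. Its average AOS effect was -0.009 and, without all 3, -0.282, and its interaction -0.262 and -0.806. Pdk4 had an average AOS effect of 0.01 without both adipose libraries. With single replicates left out, Fabp1 ranged from -0.584 to 6.617 in busulfan plus AOS against AOS, -0.14 to 6.233 against busulfan, -0.453 to 3.152 and -0.009 to 3.176 in the average busulfan and AOS effects and -0.262 to 6.931 in the interaction. The cause was not tested. The fit without all 3 libraries was chosen after seeing the data; it and the fit without both adipose libraries leave 1 busulfan library.

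All genes called with single replicates left out ranged from 2 to 195 in busulfan against control, 1 to 25 in busulfan plus AOS against AOS, 0 to 26 in busulfan plus AOS against busulfan and 18 to 163 in the average busulfan effect. The 195 and 163 came without busulfan replicate 1. DESeq2 called 127, 82, 8, 26, 215, 17 and 11 genes in the 7 comparisons and limma voom 7, 29, 1, 0, 60, 0 and 0. The median of the members ranged from -0.193 to -0.028 in busulfan against control, -0.044 to 0.053 in busulfan plus AOS against AOS, -0.104 to -0.022 in AOS against control, -0.004 to 0.139 in busulfan plus AOS against busulfan, -0.089 to 0.012 in the average busulfan effect, -0.055 to 0.026 in the average AOS effect and 0.037 to 0.208 in the interaction.

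Deviations of same-numbered libraries from their group means correlated between -0.261 and 0.159. Differently numbered libraries were not compared, so that these values cannot settle whether the replicate numbers pair the samples. With the replicate block 0 members were called, and 5, 4, 0, 0, 24, 0 and 0 of all genes. Fabp1 varied widely between libraries, from 1 read in busulfan replicate 2 to 6907 in busulfan plus AOS replicate 3. With 3 libraries a group, small differences in a gene with such a spread were not detectable.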
